A study of Mus musculus with 30 samples.

Results

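Preputial glands of male mice labelled Cyp1a1 Cyp1b1 double-knockout (DKO) were set against those of wild-type (WT) mice, all of strain B6 and all fed benzo[a]pyrene (BaP). The members were chosen by their labels: 8 arrays labelled DKO and 8 WT arrays, 2 of each genotype at weeks 4, 8, 12 and 16 of feeding, which made 16 of the 30 arrays of the series. The diet started at 6 weeks of age and gave approximately 12.5 mg/kg/day of BaP in food soaked with corn oil, and 15 mice per genotype were killed at each time. Each array held the gland RNA of 1 mouse, as far as the labels show. Every mouse in the comparison had received BaP, so the differences below are between genotypes during exposure, and whether they were present before BaP was not analysed here. The label names both genes together, so a part played by either gene alone cannot be told apart in these 16 arrays.

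BaP is a polycyclic aromatic hydrocarbon formed by combustion. It binds the aryl hydrocarbon receptor (AhR), a transcription factor that pairs with Arnt and induces the cytochrome P450 genes Cyp1a1 and Cyp1b1. Their enzymes oxidise BaP, which starts its clearance and also forms the diol epoxides that bind DNA. The preputial gland is a modified sebaceous gland whose lipid-filled cells drain into a duct lined by squamous epithelium. The labels call the tissue preputial gland duct, while the protocol describes whole dissected glands.

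Values are log2 signals per gene after quantile normalization, which gives all arrays the same distribution. It was applied because the arrays labelled DKO had a narrower range of deposited values. The standard deviation (SD) of all deposited log2 values was 1.15 to 1.42 in 7 arrays labelled DKO, 1.70 in DKO week 12 replicate 2, and 1.91 to 2.00 in the WT arrays. The median correlation with the WT arrays was 0.65 to 0.83 in those 7 arrays and 0.91 in DKO week 12 replicate 2. Among WT arrays it was 0.97 to 0.99. DKO week 12 replicate 2 was the only array labelled DKO with an SD above 1.5. Its difference from the WT week 12 mean is therefore given beside each gene list, marker list and gene family.

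A trend with mean WT signal was seen after normalization. The same WT signal is subtracted in the difference, so the split by WT signal can itself give such a trend, which was not tested. In the fifth of genes with the highest WT signal, the median difference (DKO minus WT) was -0.52 log2, 11.5% of genes were called higher and 39.9% were called lower. In the fifth with the lowest WT signal it was 0.37, with 20.5% called higher and 0.293% called lower. In DKO week 12 replicate 2 alone the corresponding medians were -0.14 and 0.05. A called fall in a strongly expressed gene, or a called rise in a weak one, was thus common among the arrays labelled DKO whatever the gene's role.

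**Figure D1:**
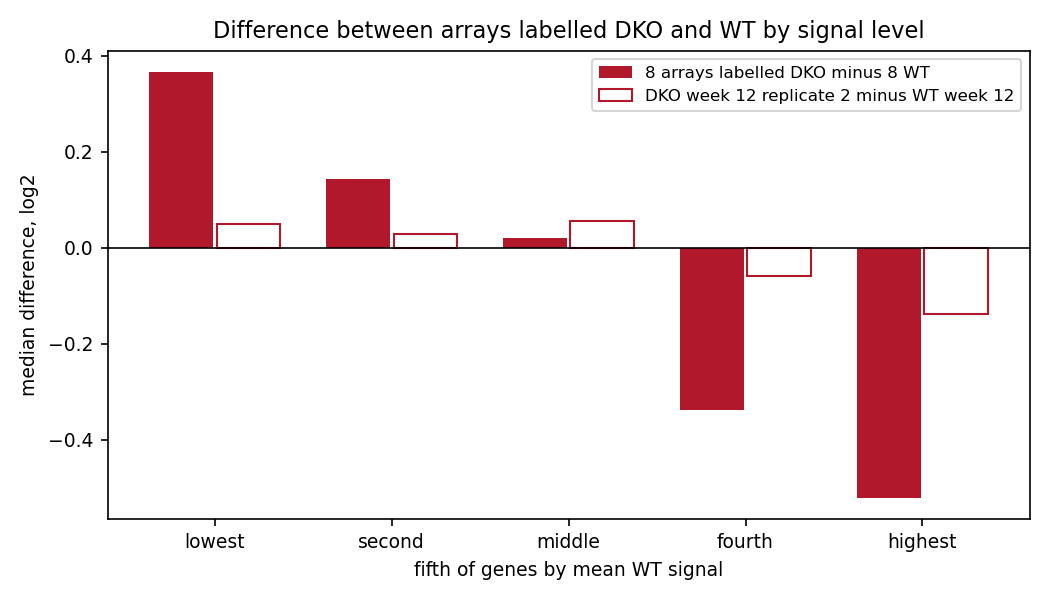
Median difference in log2 signal for genes split into 5 equal bands by mean WT signal (x axis), for all 8 arrays labelled DKO minus 8 WT arrays (filled bars) and for DKO week 12 replicate 2 minus the WT week 12 mean (open bars). The filled bars run downward with signal, between 0.37 and -0.52, and the open bars stay between 0.06 and -0.14.

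Across 18784 genes, 2358 (12.6%) were called higher and 2955 (15.7%) lower in the arrays labelled DKO by limma at a Benjamini-Hochberg adjusted p under 0.05. The median difference over all genes was 0.03 log2. The deposited values without further normalization gave 7623 higher and 5583 lower genes, so that 57.7% of the calls were higher, against 44.4% after normalization. A stricter rule asked for all 8 arrays labelled DKO beyond all 8 WT arrays, a mean difference of at least 1 log2, and at least 1 log2 in DKO week 12 replicate 2. It was met by 166 genes (0.884%) that were higher and 483 (2.57%) that were lower. Of the 5313 called genes, 4558 lay on the same side of WT in DKO week 12 replicate 2. That array lay above all 8 WT arrays for 1655 of the 2358 higher genes and below all of them for 2201 of the 2955 lower genes. It was 1 of the 8 arrays labelled DKO that made the calls. Such counts were therefore partly fixed in advance, are no separate check, and were not made over all 18784 genes. The count of higher genes was 1538 to 1558 when any of the WT arrays of weeks 4, 8 or 16 was left out.

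The label descriptions number the samples. The WT arrays carried numbers 3 to 10 and the arrays labelled DKO 22 to 28 and 33, so number range and genotype cannot be told apart within the 16 arrays. A fit of all 15 groups of the series with the range as a block called 171 genes higher and 170 lower. Its offset rested on the 2 groups that hold both ranges, so its errors were wider, and a lost call there need not mean that a difference shrank. The number of list members it called is given with each of the 20 gene lists.

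Cyp1b1 signal went against the label. Its signal was 10.4 to 10.8 (median 10.6) in the arrays labelled DKO, against 6.10 to 6.53 (median 6.36) in WT. All 8 arrays labelled DKO lay far above all WT arrays, at every week. The difference was 4.21 ± 0.15 log2 (SE), an 18.5-fold higher signal (limma adjusted p = 9.75e-09, 8 arrays each). It was 4.22 in DKO week 12 replicate 2 and 4.28 with the number block (adjusted p = 5.15e-08). Cyp1a1 was 3.31 to 6.43 (median 4.01) in the arrays labelled DKO, against 4.46 to 4.88 (median 4.66) in WT. Both medians lay below the median signal of all genes (5.36), the groups overlapped, and the difference of -0.18 ± 0.38 log2 was not called (adjusted p = 0.753). It was -0.80 in DKO week 12 replicate 2 and 0.10 over both arrays of week 12. The place of either probe set within its gene, inside or outside the deletion, was not used here, so neither signal checks the genotype.

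Of the 11 measured members of the AhR list, Cyp1b1 included, 5 were called higher and none lower (median 0.39 log2, and 0.59 in DKO week 12 replicate 2), and with the number block 3 were called higher. Without the block, 12.6% of all genes were called higher and 15.7% lower. Tiparp, an ADP-ribosyltransferase induced by AhR that limits its action, was at 7.58 to 9.63 (median 8.96) in the arrays labelled DKO, against 6.60 to 7.48 (median 6.80) in WT. The groups did not overlap, and the difference was 1.94 ± 0.25 log2, or 3.85-fold (adjusted p = 0.000172). Nqo1, a quinone reductase, was at 5.19 to 7.61 (median 6.81) in the arrays labelled DKO, against 4.83 to 5.86 (median 5.12) in WT, a difference of 1.46 ± 0.28 log2 (adjusted p = 0.00226). Aldh3a1, an aldehyde dehydrogenase, was at 6.29 to 7.97 (median 7.61) in the arrays labelled DKO, against 5.84 to 6.36 (median 6.26) in WT, a difference of 1.16 ± 0.25 log2 (adjusted p = 0.00416). The arrays of both genes overlapped, with the medians apart, and Aldh3a1 lost its call with median centring. Ahrr, the AhR repressor, differed by 0.81 ± 0.27 log2 (adjusted p = 0.0395) and lost its call without any 1 of the WT arrays, without DKO week 4 replicate 2, week 8 replicate 2, week 12 replicate 1 or week 16 replicate 2, and with normal scores of ranks. The receptor itself differed by -0.01 log2 (Ahr) and its partner by -0.32 (Arnt), and neither was called.

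The promoters of these genes are shown because AhR acts on them through a short core, GCGTG or its reverse complement CACGC. RefSeq start sites on GRCm38.p6 were used, with 250 bases before and 50 after the start, in the gene's own direction. The stretches below carry the core in capitals with 30 bases on each side. It was found at position -76 in Cyp1b1 (chr17:79715103-79715167, minus strand), -54 in Cyp1a1 (chr9:57697529-57697593, plus strand), -170 in Tiparp (chr3:65528247-65528311, plus strand) and -107, -82 and -27 in Ahrr (chr13:74292324-74292468, minus strand), counted back from the start.
Cyp1b1: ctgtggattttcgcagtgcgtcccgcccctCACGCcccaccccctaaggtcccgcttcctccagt
Cyp1a1: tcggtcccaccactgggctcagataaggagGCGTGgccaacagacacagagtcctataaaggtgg
Tiparp: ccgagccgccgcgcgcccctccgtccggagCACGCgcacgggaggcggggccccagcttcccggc
Ahrr: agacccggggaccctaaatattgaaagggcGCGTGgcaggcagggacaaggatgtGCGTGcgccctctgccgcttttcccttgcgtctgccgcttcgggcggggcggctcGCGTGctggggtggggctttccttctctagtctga
The core stood in the window of all 4 genes, whether the signal was higher or, as for Cyp1a1, not called. It occurred on either strand in 32.4% of all 32851 promoter windows, and it was not in the Nqo1 window. A match describes the letters and is not evidence of binding.

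**Figure D2:**
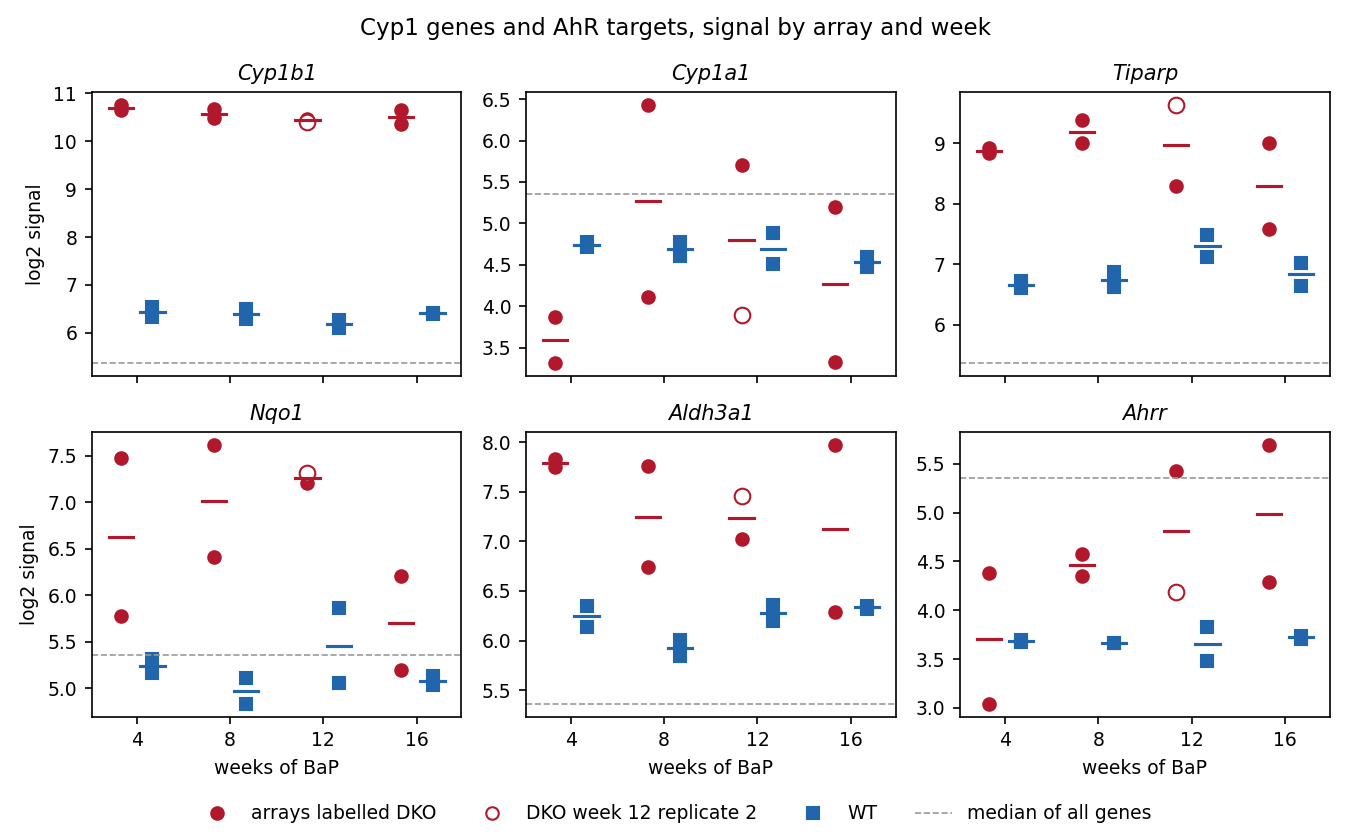
Log2 signal (y axis) of 6 AhR genes by weeks of BaP (x axis), with a point per array, bars at the mean of 2 arrays, circles for arrays labelled DKO, squares for WT, and DKO week 12 replicate 2 as an open circle. Cyp1b1 lies between 10.4 and 10.8 in the arrays labelled DKO at all 4 weeks, against 6.10 to 6.53 in WT, while Cyp1a1 overlaps.

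Among the 15 largest positive differences under the stricter rule were 7 genes of the suprabasal and cornified epidermal layers: Krt1, Krt10, Lce3e, Lce3a, Sprr2b, Sprr1b and Rptn. As keratinocytes leave the basal layer they switch to the keratin pair Krt1 and Krt10 and then build an envelope from small proline-rich (Sprr), late cornified envelope (Lce) and related proteins. Of 25 members measured 18 were called higher and 1 lower (median 1.44 log2, and 1.70 in DKO week 12 replicate 2), and 11 met the stricter rule. With the number block 10 were called higher. Among all genes, without the block, 12.6% were called higher and 15.7% lower. In these gland samples, more cells of a type and more RNA per cell cannot be told apart.

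Krt1 was at 4.49 to 11.3 (median 10.3) in the arrays labelled DKO, against 4.00 to 4.46 (median 4.16) in WT. Only DKO week 4 replicate 1, at 4.49, came close to the WT arrays, and the other 7 lay between 7.49 and 11.3. The difference was 5.31 ± 0.38 log2 (adjusted p = 2.86e-06). Krt10 was at 8.93 to 11.4 (median 10.5) in the arrays labelled DKO, against 6.01 to 7.23 (median 6.66) in WT, a 14-fold higher signal (3.81 ± 0.21 log2, adjusted p = 2.60e-07) with no overlap. Rptn, which encodes the envelope protein repetin, was at 9.51 to 11.4 (median 10.2) in the arrays labelled DKO, against 6.24 to 7.06 (median 6.94) in WT, or 11.1-fold higher (adjusted p = 6.50e-07). Krt10 and Rptn thus separated the genotypes at every week.

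Sprr2b was at 4.73 to 11.1 (median 9.65) in the arrays labelled DKO, against 3.43 to 4.24 (median 3.94) in WT, a difference of 4.71 ± 0.39 log2 (adjusted p = 7.68e-06). Sprr2d was at 5.15 to 11.6 (median 10.1) in the arrays labelled DKO, against 4.84 to 5.28 (median 5.0) in WT, a difference of 4.36 ± 0.39 log2 (adjusted p = 1.28e-05). For both, the 2 lowest arrays labelled DKO were those of week 4. Lce3e was at 3.06 to 10.8 (median 8.55) in the arrays labelled DKO, against 2.51 to 2.92 (median 2.71) in WT (4.89 ± 0.79 log2, adjusted p = 0.000789). Lce3a differed by 3.76 ± 0.55 log2 (adjusted p = 0.000395) and Sprr1b by 3.37 ± 0.59 (adjusted p = 0.00127). Their WT signals lay below the median of all genes, so no fold is given. Sprr, Lce, stefin and defensin genes have close relatives, and their probe sets may not be specific. Ivl (involucrin), Casp14 (the caspase of cornification) and Tgm3 (a transglutaminase that crosslinks the envelope) rose by 1.28, 1.40 and 1.63 log2. Lor (loricrin) differed by 1.44 log2 and was not called. Sprr4 went the other way, at 5.35 to 11.6 (median 10.9) in the arrays labelled DKO, against 11.6 to 12.4 (median 12.3) in WT (-2.03 ± 0.46 log2, adjusted p = 0.00606), with the lowest value in DKO week 16 replicate 1. It lost its call with median centring and scaling by SD.

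Promoter stretches of 4 envelope genes are shown because all 4 were called higher and hold TGANTCA, in RefSeq windows of the same kind. TGANTCA is a loose form of the AP-1 site of Jun and Fos dimers, with any base in the middle. The middle base was G in Sprr2d and Sprr2b, A in Sprr1b and T in Rptn. The motif stands in capitals, at -193 in Sprr2d (chr3:92338917-92338983, plus strand), -195 in Sprr2b (chr3:92316480-92316546, plus strand), -111 in Sprr1b (chr3:92438854-92438920, minus strand) and -96 in Rptn (chr3:93393573-93393639, plus strand).
Sprr2d: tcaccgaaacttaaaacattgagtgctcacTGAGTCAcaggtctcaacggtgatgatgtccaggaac
Sprr2b: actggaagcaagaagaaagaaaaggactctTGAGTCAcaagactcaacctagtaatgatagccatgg
Sprr1b: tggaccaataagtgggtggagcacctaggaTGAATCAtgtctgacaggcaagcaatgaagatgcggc
Rptn: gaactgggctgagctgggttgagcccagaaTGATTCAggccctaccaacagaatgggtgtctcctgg
The 4 genes lie on chromosome 3. The motif occurred in 7.81% of all promoter windows, and it was not in the windows of Krt10, Lce3a or Lce3e. Among other higher genes searched, it was in the window of Stfa3 and not in those of Stfa1, Csta1, S100a8 or S100a9. Krt1 and Defb4 had no window to search. The 4 genes were picked after their promoters were searched, so their shared motif is a description.

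Squamous epithelium also secretes protease inhibitors and antimicrobial peptides. Of 17 measured stefins, beta-defensins and whey acidic protein (WAP) inhibitors, 12 were called higher and 1 lower (median 1.34 log2, and 1.02 in DKO week 12 replicate 2), and 6 were called higher with the number block. The shares over all genes, without the block, were 12.6% higher and 15.7% lower. Stfa1, a stefin A that inhibits cysteine proteases, was at 8.46 to 12.6 (median 11.5) in the arrays labelled DKO, against 3.53 to 6.25 (median 4.79) in WT. The difference of 6.31 ± 0.30 log2 (adjusted p = 8.06e-08) was the largest among genes that met the stricter rule. Defb4, an antimicrobial beta-defensin, was at 7.26 to 11.4 (median 10.4) in the arrays labelled DKO, against 3.48 to 4.67 (median 3.72) in WT (6.24 ± 0.29 log2, adjusted p = 6.58e-08). Both genes separated the genotypes at every week, including week 4. Stfa3 (4.31 ± 0.23 log2, 19.9-fold) and Defb6 (2.95 ± 0.16 log2, 7.75-fold) were higher without overlap (adjusted p = 2.14e-07 and 2.42e-07), and Csta1 differed by 4.16 ± 0.27 log2 (adjusted p = 1.12e-06). Slpi, an elastase inhibitor, rose by 0.97 log2. Wfdc18, a secreted WAP-domain protein, was at 7.91 to 9.48 (median 8.88) in the arrays labelled DKO, against 8.93 to 10.6 (median 10.2) in WT, and fell by 1.09 ± 0.21 log2 (adjusted p = 0.00232). It lost its call with array weights and was at 0.01 with the number block.

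**Figure D3:**
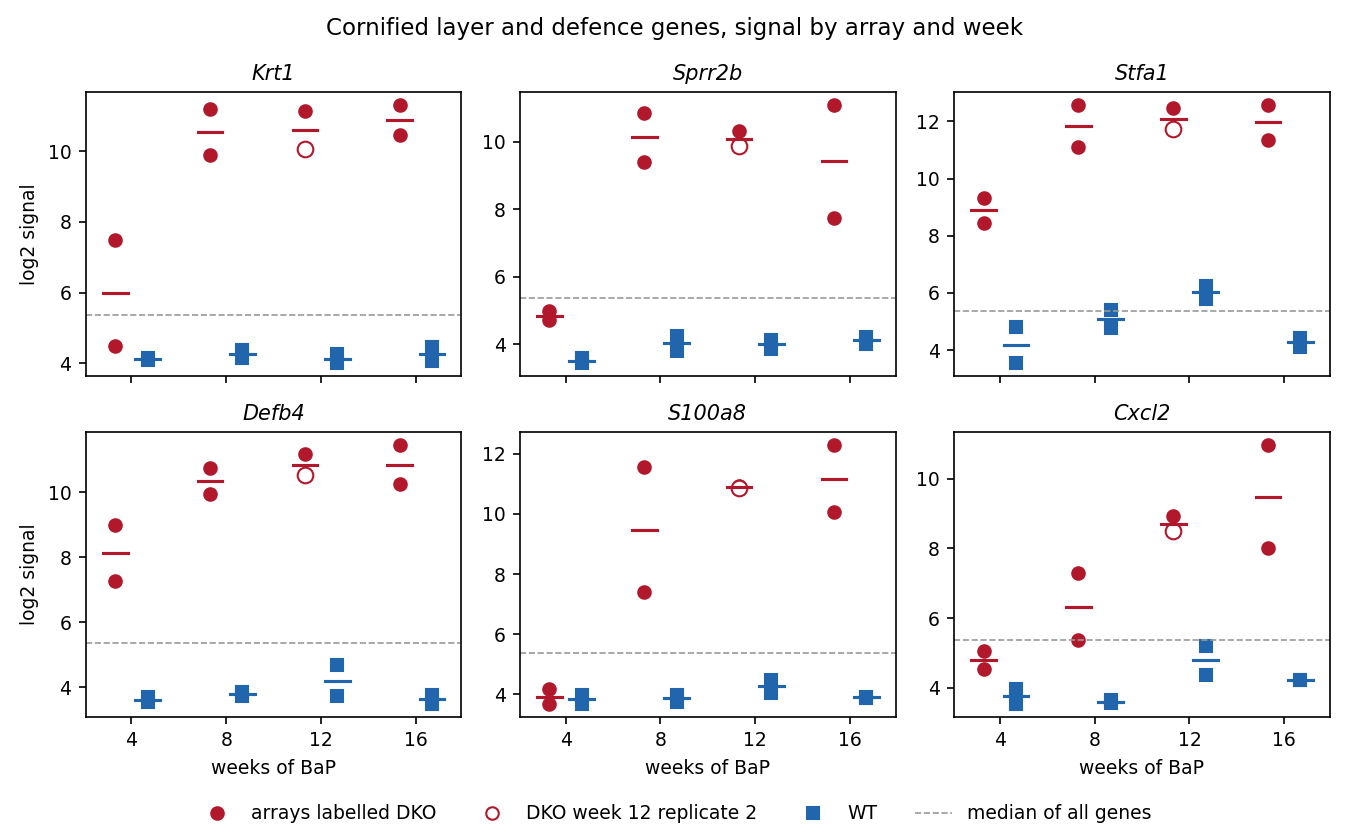
Log2 signal (y axis) of cornified-layer and defence genes by weeks of BaP (x axis), with a point per array, bars at the mean of 2 arrays and DKO week 12 replicate 2 open. Stfa1 and Defb4 separate the arrays labelled DKO from WT at all 4 weeks, while S100a8 at week 4 lies at 3.69 and 4.16 in the arrays labelled DKO, against 3.68 and 3.98 in WT.

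Basal and activated keratinocyte genes did not move one way. Of 17 measured, 4 were called higher and 5 lower (median -0.32 log2, and 0.31 in DKO week 12 replicate 2), and none was called with the number block. Shares over all genes, without the block, were 12.6% higher and 15.7% lower. In the fifth with the highest WT signal, which held 8 of the 17, 39.9% of all genes were called lower. Krt6b, a keratin of wounded and hyperplastic epidermis, was at 3.01 to 10.1 (median 8.31) in the arrays labelled DKO, against 3.34 to 4.15 (median 3.66) in WT (3.56 ± 0.59 log2, adjusted p = 0.000905). Its 2 week 4 arrays labelled DKO and DKO week 8 replicate 1 lay at 3.01 to 4.50, and the other 5 lay at 8.03 to 10.1. Krt16, its partner keratin, rose by 1.19 ± 0.27 (adjusted p = 0.0058), although the number block gave -0.75. Krt15, a keratin of resting basal cells, was at 5.48 to 9.23 (median 8.33) in the arrays labelled DKO, against 9.01 to 9.95 (median 9.73) in WT, and fell by 1.47 ± 0.30 log2 (adjusted p = 0.00326). The hemidesmosome integrin Itga6 fell by 1.36 ± 0.32 (adjusted p = 0.00802), but differed by -0.09 in DKO week 12 replicate 2 and by 1.25 with the number block. Krt5 differed by -0.32 and Trp63, the regulator of basal cells, by -0.36, and neither was called. Of 15 genes for the skin's barrier lipids and proteases, 8 were called higher and none lower (median 0.52 log2, and 0.45 in DKO week 12 replicate 2), and 1 was called higher with the number block. The share of all genes called higher, without the block, was 12.6%. The kallikreins Klk6 and Klk14, proteases that split contacts between cornified cells, were 3.27-fold and 2.91-fold higher (1.71 ± 0.23 and 1.54 ± 0.25 log2, adjusted p = 0.000266 and 0.00076).

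Of 27 measured genes of neutrophil and IL-1 inflammation 11 were called higher and 1 lower (median 0.50 log2, and 1.25 in DKO week 12 replicate 2), and with the number block 4 were higher and 1 lower. Calls over all genes, without the block, came to 12.6% higher and 15.7% lower. S100a8, a calprotectin subunit of neutrophils and stressed keratinocytes, was at 3.69 to 12.3 (median 10.4) in the arrays labelled DKO, against 3.68 to 4.49 (median 3.95) in WT. The 2 arrays of week 4 were within the WT range and the other 6 were above it (4.90 ± 0.49 log2, adjusted p = 3.46e-05). Its partner S100a9 was at 4.93 to 12.3 (median 10.3) in the arrays labelled DKO, against 4.29 to 4.83 (median 4.53) in WT (4.45 ± 0.67 log2, adjusted p = 0.000503). Cxcl2, a chemokine that draws neutrophils, was at 4.53 to 10.9 (median 7.64) in the arrays labelled DKO, against 3.54 to 5.21 (median 4.10) in WT (3.23 ± 0.39 log2, adjusted p = 0.000116). Its 2 week 4 arrays lay within the WT range. Saa3, an acute-phase protein, differed by 2.70 ± 0.33 log2 (adjusted p = 0.000117) and Il1f9, an IL-36 cytokine of keratinocytes, by 2.81 ± 0.39 (adjusted p = 0.000282). The interleukin gene Il1b rose by 1.65 log2. Of the genes made in maturing neutrophils, Camp, Ngp and Elane differed by 0.00, 0.15 and 0.35 log2 and were not called. Mpo, also of this kind, rose by 0.50 log2 and was called. Il1r2, a decoy receptor of IL-1, fell by 1.08 ± 0.19 (adjusted p = 0.00121), but differed by -0.31 in DKO week 12 replicate 2 and by 1.20 with the number block.

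Other immune groups moved less. For comparison, 12.6% of all genes were called higher and 15.7% lower without the number block. Of 14 macrophage genes 4 were called higher and none lower (median 0.23 log2, and 1.00 in DKO week 12 replicate 2), 2 of them with the number block. The list's median was -0.19 on the deposited values, so its direction depended on the scaling. Mpeg1, the pore-forming protein perforin-2 of macrophages, was at 6.50 to 9.85 (median 7.94) in the arrays labelled DKO, against 5.84 to 6.11 (median 6.05) in WT, or 3.95-fold higher (1.98 ± 0.33 log2, adjusted p = 0.000849). C1qc, a complement subunit, was 2.34-fold higher (1.23 ± 0.24 log2, adjusted p = 0.00225), a call lost on the deposited and the median-centred values. Both met the stricter rule. Of 15 lymphocyte and MHC class II genes 4 were called higher and 2 lower (median 0.12 log2, and 0.38 in DKO week 12 replicate 2), and none was called with the number block. The 2 lower calls came to a share near the 15.7% of all genes. Cd79a, a B cell receptor subunit, rose by 1.14 ± 0.21 log2 (adjusted p = 0.00163) from a signal below the median of all genes, but differed by 0.17 in DKO week 12 replicate 2. Cd74, the invariant chain of MHC class II, fell by 1.57 ± 0.35 (adjusted p = 0.00584), yet differed by -0.01 in DKO week 12 replicate 2. Of 13 interferon-stimulated genes only Cxcl9, a T cell chemokine, was called (1.75 ± 0.35 log2, adjusted p = 0.00294), and the median was 0.39 (0.76 in DKO week 12 replicate 2). None was called with the number block, and the 1 call without it was a share below the 12.6% of all genes.

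Of 19 stroma and wound matrix genes 8 were called higher and 4 (Acta2, Tagln, Fn1 and Sparc) lower (median 0.50 log2, and 1.03 in DKO week 12 replicate 2), and 2 were higher with the number block. Higher and lower calls over all genes, without the block, came to 12.6% and 15.7%. Col1a2 was at 6.71 to 8.52 (median 7.58) in the arrays labelled DKO, against 5.81 to 6.71 (median 6.47) in WT, and was 2.17-fold higher (1.12 ± 0.21 log2, adjusted p = 0.00208). Its call was lost with median centring. Col5a2 differed by 1.18 ± 0.18 log2 without overlap (adjusted p = 0.000512). Col5a1 differed by 0.50 and was not called. Lum (lumican) and Postn (periostin), matrix proteins of wounds, rose by 1.68 and 1.30 log2. Vim, the intermediate filament of mesenchymal cells, was 2.20-fold higher (1.14 ± 0.22 log2, adjusted p = 0.0024), but was not called on the deposited or median-centred values. Acta2, smooth muscle actin, was at 4.71 to 9.0 (median 6.86) in the arrays labelled DKO, against 7.32 to 9.20 (median 8.09) in WT, and fell by 1.49 ± 0.43 (adjusted p = 0.0211). It differed by 0.09 in DKO week 12 replicate 2 and lost its call without WT week 12 replicate 2 or DKO week 12 replicate 1. Of 12 matrix proteases and plasminogen genes 3 were called higher, none lower (median 0.29, and 0.37 in DKO week 12 replicate 2), and none with the number block. Mmp3 (stromelysin 1) was 3.91-fold higher (1.97 ± 0.39 log2, adjusted p = 0.00257), Serpinb2 (plasminogen activator inhibitor 2) differed by 1.25 ± 0.22 (adjusted p = 0.00141), and Mmp13 (collagenase 3) rose by 0.91.

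The gland's main product is lipid. The fatty acid and cholesterol list, under control of the SREBP transcription factors, had 17 of 22 members called lower and none higher (median -1.38 log2, and -1.04 in DKO week 12 replicate 2), and 9 met the stricter rule. Of the 22, 18 belonged to the fifth of genes with the highest WT signal, in which 39.9% of all genes were called lower. With the number block 1 was called lower, and the median was -0.82. Insig1, the sterol-sensing brake on SREBP processing, was at 4.45 to 8.54 (median 7.24) in the arrays labelled DKO, against 9.51 to 10.2 (median 9.89) in WT, or 8.77-fold lower (-3.13 ± 0.51 log2, adjusted p = 0.000797). Lss, lanosterol synthase, was at 5.35 to 7.16 (median 5.93) in the arrays labelled DKO, against 8.19 to 8.85 (median 8.62) in WT, or 5.77-fold lower (-2.53 ± 0.26 log2, adjusted p = 3.98e-05). Neither gene's arrays overlapped. Tmem97, a sterol-regulated membrane protein, was 6.82-fold lower (adjusted p = 5.80e-05). Fasn (fatty acid synthase) was 3.54-fold lower (adjusted p = 0.00015), and Acacb, an acetyl-CoA carboxylase, 3.29-fold lower (adjusted p = 0.000167). The mevalonate pathway genes Mvd, Mvk and Fdps fell by 1.84, 1.75 and 1.63 log2. The SREBP genes themselves differed by -0.12 (Srebf1) and -0.18 (Srebf2) and were not called.

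Of 21 sebaceous wax, triglyceride and lipid droplet genes 8 were called lower and 3 higher (median -0.55 log2, and -0.39 in DKO week 12 replicate 2), with none called under the number block. Of the 21, 13 belonged to the fifth of genes with the highest WT signal, and the 8 lower calls came to a share near the 39.9% over all genes of that level. Elovl3, a fatty acid elongase of sebocytes, was at 2.84 to 5.24 (median 4.23) in the arrays labelled DKO, against 5.95 to 7.71 (median 6.40) in WT (-2.36 ± 0.25 log2, adjusted p = 5.35e-05). Awat2, the wax ester synthase, was at 4.60 to 10.3 (median 9.43) in the arrays labelled DKO, against 10.6 to 11.2 (median 10.8) in WT, or 4.49-fold lower (adjusted p = 0.0115), with the lowest value in DKO week 16 replicate 1. Both were lower in all 8 arrays labelled DKO than in any WT array. Dgat1, which completes triglycerides, was 4.16-fold lower (adjusted p = 0.000121), and Plin2, which coats lipid droplets, 4.12-fold lower (adjusted p = 0.000318). Awat2 and Plin2 lost their calls with median centring and scaling by SD. Pparg, the regulator of sebocyte maturation, fell by 1.32 log2. The lipid-binding protein Fabp5, which keratinocytes also make, was at 10.1 to 11.2 (median 10.4) in the arrays labelled DKO, against 8.13 to 9.69 (median 9.14) in WT, or 2.76-fold higher (adjusted p = 0.000456). Fabp4 and Elovl6 rose by 0.73 and 0.74 log2. Scd1, Scd3 and Far2 differed by -0.68, -0.27 and 0.14 and were not called. The 8 sebocyte markers used to check the tissue averaged 4.93 to 6.70 in the arrays labelled DKO, against 6.68 to 6.97 in WT. Their median difference was -0.79 log2, and -0.75 in DKO week 12 replicate 2.

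**Figure D4:**
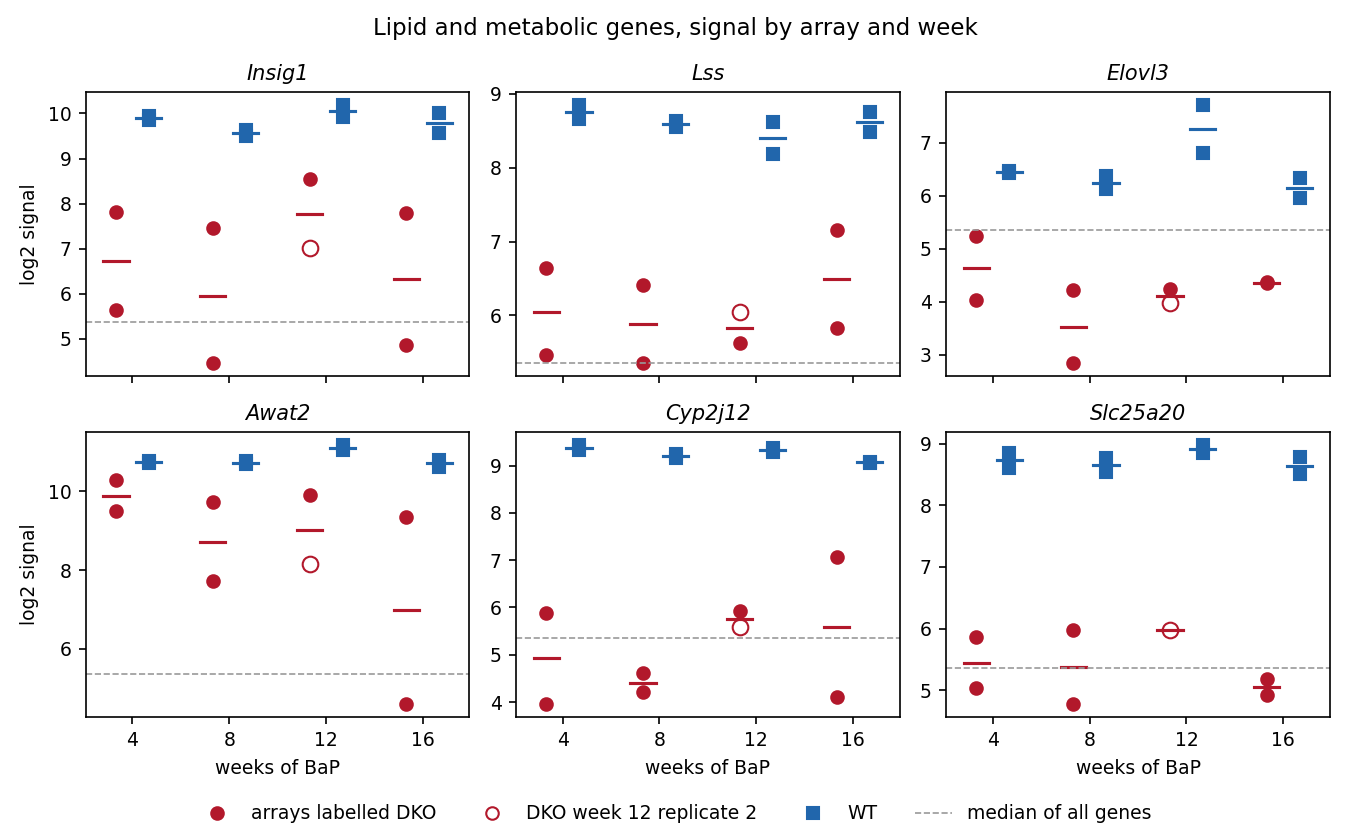
Log2 signal (y axis) of 6 lipid and metabolic genes by weeks of BaP (x axis), with a point per array, bars at the mean of 2 arrays and DKO week 12 replicate 2 open. All arrays labelled DKO lie below all WT arrays in the 6 panels, and Awat2 in DKO week 16 replicate 1, at 4.60, lies far below the other arrays labelled DKO.

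The 15 largest falls under the stricter rule, without predicted models, were in genes outside the lists and of varied roles. Cyp2j12, a cytochrome P450 of the arachidonic acid epoxygenase family, was at 3.96 to 7.07 (median 5.09) in the arrays labelled DKO, against 9.06 to 9.43 (median 9.27) in WT (-4.08 ± 0.38 log2, adjusted p = 1.86e-05). Slc25a20, the carrier that brings acylcarnitines into mitochondria for oxidation, was at 4.78 to 5.98 (median 5.52) in the arrays labelled DKO, against 8.50 to 8.97 (median 8.78) in WT, or 9.64-fold lower (adjusted p = 1.12e-06). For both, the gap between the groups exceeded 1 log2. Ndufa9, a subunit of NADH dehydrogenase, was 11.9-fold lower (adjusted p = 7.68e-06), and Timm17a, of the mitochondrial import channel, 9.58-fold lower (adjusted p = 1.89e-06). Got1, cytosolic aspartate aminotransferase, was 10.1-fold lower (adjusted p = 0.000121) and Pank1, which starts coenzyme A synthesis, 9.97-fold lower (adjusted p = 0.000108). Scgb1c1, a secretoglobin, was 13.7-fold lower (adjusted p = 5.88e-05). Gabrp, a GABA receptor subunit, was 9.35-fold lower (adjusted p = 7.68e-06), and Rdh9, a retinol dehydrogenase, 9.12-fold lower (adjusted p = 8.23e-06). Liph, a lipase that releases lysophosphatidic acid, fell by 3.15 ± 0.23 log2 (adjusted p = 3.65e-06) and kept its call with the number block (-1.80, adjusted p = 0.0369). The others among the 15 lowest were Supt4a (a transcription elongation factor), Abhd3 (a phospholipase), Borcs8 (of the complex that moves lysosomes), Gk5 (a glycerol kinase that limits sterol synthesis in mouse skin) and Sntb1 (a syntrophin), at -3.86 to -3.14 log2. Of the 15 lowest, 13 lost their call with the number block, and Liph and Sntb1 (-2.27, adjusted p = 0.00692) did not. In that fit the differences of the 13 were all smaller in size, between -2.53 (Gk5) and -0.11 log2 (Borcs8). Got1 was at -2.36, Supt4a at -0.82, Slc25a20 at -0.73, Ndufa9 at -0.66 and Timm17a at -0.64.

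Glutathione conjugation and nucleotide excision repair act against reactive BaP metabolites and their DNA adducts. Of 18 glutathione and NRF2 genes 6 were called lower and 1 higher (median -0.38 log2, and -0.24 in DKO week 12 replicate 2), and none was called with the number block, where the median was 0.07. Without the block, 12.6% of all genes were called higher and 15.7% lower. In the fifth with the highest WT signal, which held 10 of the 18, 39.9% of all genes were called lower. Gclc, the catalytic subunit for the first step of glutathione synthesis, was at 4.36 to 8.02 (median 7.03) in the arrays labelled DKO, against 8.14 to 9.06 (median 8.92) in WT, or 4.75-fold lower (adjusted p = 0.00299). Gss, which does the second step, was at 4.59 to 5.53 (median 5.09) in the arrays labelled DKO, against 6.43 to 6.84 (median 6.51) in WT (-1.44 ± 0.16 log2, adjusted p = 7.78e-05). Neither overlapped. Gsta4, a glutathione transferase for lipid peroxidation products, and Srxn1, sulfiredoxin, were 2.30-fold and 1.91-fold lower (adjusted p = 0.000995 and 0.00163). Slc7a11, the cystine importer that feeds glutathione synthesis, was at 3.34 to 8.20 (median 5.17) in the arrays labelled DKO, against 3.34 to 4.13 (median 3.47) in WT (2.01 ± 0.52 log2, adjusted p = 0.0118). Of 13 p53 targets 2 were called higher and 2 lower (median -0.21, and -0.30 in DKO week 12 replicate 2), close to the shares over all genes, and none with the number block. Cdkn1a and Mdm2 differed by -0.11 and -0.38 without a call. Tnfrsf10b, a death receptor, fell by 1.03 ± 0.16 log2 (adjusted p = 0.000662).

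Among 17 genes for adduct repair and bypass 1 was called higher and 5 lower (median -0.57 log2, but -0.01 in DKO week 12 replicate 2), and none with the number block. Lower calls came to 15.7% over all genes and 39.9% in the fifth with the highest WT signal, which held 5 of the 17. Xpa, which verifies damage in nucleotide excision repair, was at 9.60 to 10.3 (median 9.82) in the arrays labelled DKO, against 8.05 to 8.54 (median 8.23) in WT, or 3.09-fold higher (adjusted p = 4.80e-05). All arrays labelled DKO were higher, but the number block gave 0.01 (adjusted p = 0.99). Polh, a polymerase that bypasses lesions, was 2.83-fold lower (adjusted p = 0.00053) and Rad18, which recruits such polymerases, 2.10-fold lower (adjusted p = 0.00115), both without overlap. Ddb1, part of a damage-binding complex, was 2.78-fold lower (adjusted p = 0.0003), but differed by -0.21 in DKO week 12 replicate 2.

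Housekeeping groups were mixed. Of 23 DNA replication and mitosis genes 7 were called lower and 2 higher (median -0.52 log2), while DKO week 12 replicate 2 had a median of 0.17, and none was called with the number block. Lower calls came to 15.7% over all genes and 39.9% in the fifth with the highest WT signal, which held 6 of the 23. Aurkb, a mitotic kinase, fell by 1.45 ± 0.25 (adjusted p = 0.00118). Top2a, the topoisomerase of dividing cells, was 1.49-fold higher (0.57 ± 0.18 log2, adjusted p = 0.0296), but -0.40 on the deposited values and -0.58 with median centring. Mki67, a marker of cycling cells, differed by 0.25 and was not called. Of 16 hypoxia and glycolysis genes 6 were called lower and none higher (median -0.38, and -0.01 in DKO week 12 replicate 2), and with the number block 1 was called higher. Of the 16, 11 belonged to the fifth of genes with the highest WT signal. The 6 lower calls came to a share near the 39.9% over all genes of that level. Pfkp, a phosphofructokinase, was 2.75-fold lower (adjusted p = 9.72e-05), but differed by 0.04 in DKO week 12 replicate 2 and by 0.69 with the number block. Heat shock chaperones had 4 of 10 lower and 2 higher (median 0.03, and 0.29 in DKO week 12 replicate 2), and ribosomal proteins 2 of 11 lower and 3 higher (median 0.07, and 0.21 in that array). No member of either list was called with the number block. The fifth of genes with the highest WT signal held 8 of the 10 chaperones and 9 of the 11 ribosomal proteins. The sign of both medians turned with the scaling. Hspa8, a constitutive chaperone, was 2.68-fold lower (adjusted p = 0.000143), a call lost with median centring and scaling by SD.

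**Figure D5:**
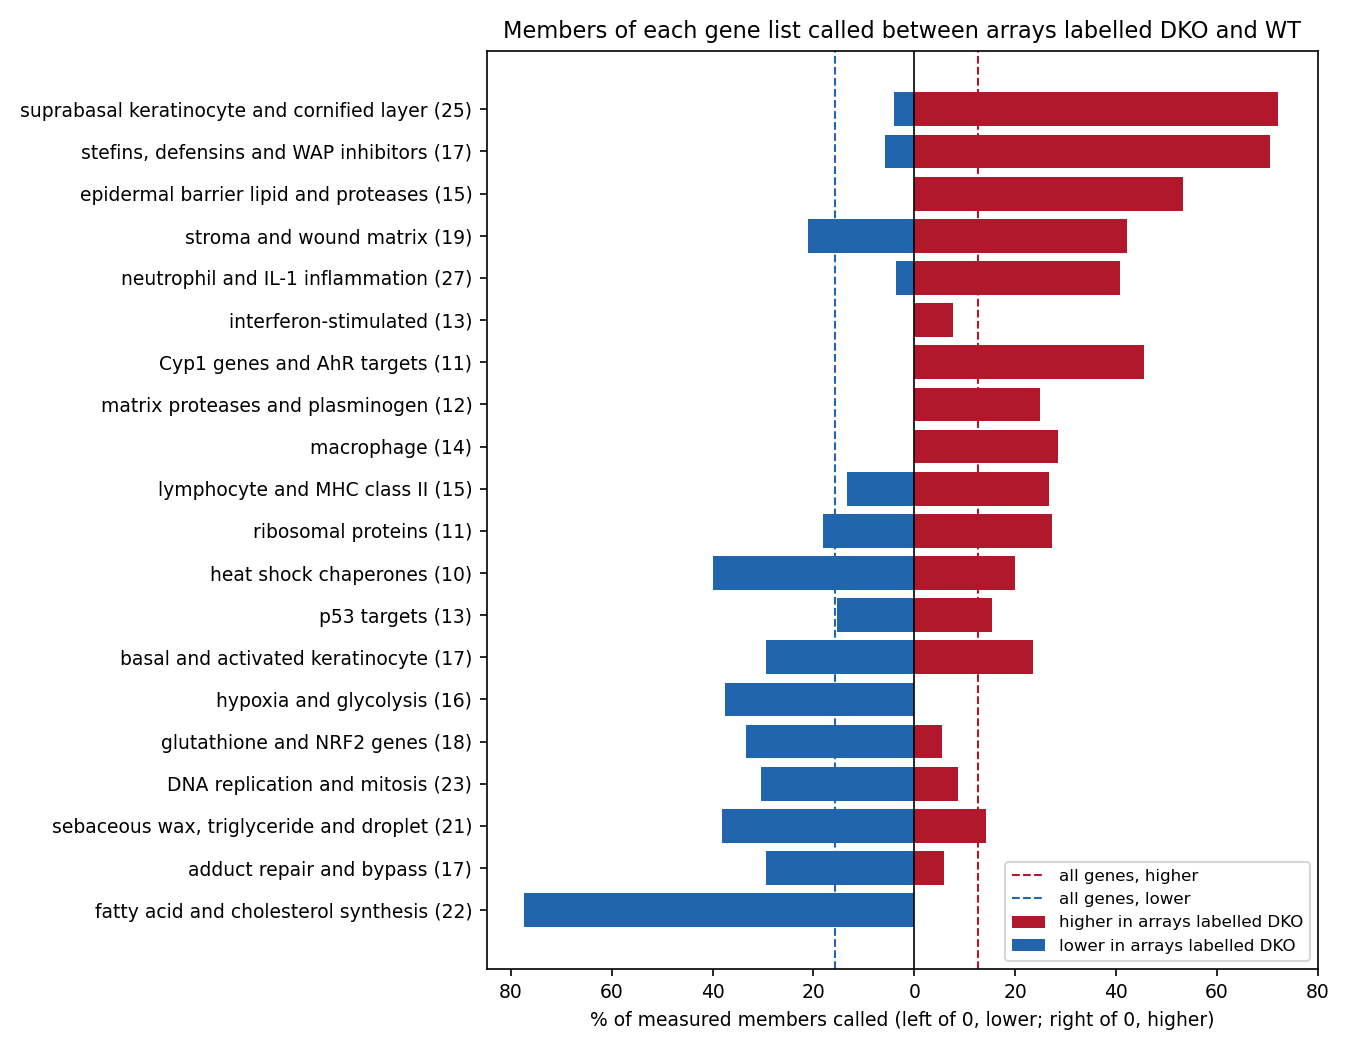
Share of measured members of each gene list (rows, number measured in brackets) called higher (right) or lower (left) in the arrays labelled DKO, in percent (x axis), with dashed lines at the shares over all genes (12.6% and 15.7%). The cornified-layer list reaches furthest to the right and the fatty acid and cholesterol list furthest to the left.

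Whether the difference changed with exposure was tested by setting weeks 12 and 16 against weeks 4 and 8. No gene was called (0% of 18784) by limma, with 1420 at an unadjusted p under 0.05. The F test over the 4 weekly differences also called none (0%), with 1578 at an unadjusted p under 0.05. Without DKO week 16 replicate 2 these counts were 315 and 543, without DKO week 8 replicate 2 they were 9 and 1, and without DKO week 16 replicate 1 they were 7 and 21. Among the genes named here, Saa3, S100a9 and S100a8 differed most between later and earlier weeks. For S100a8 the difference was 0.09, 5.61, 6.63 and 7.26 log2 at weeks 4, 8, 12 and 16 (later minus earlier weeks 4.10 ± 0.98, adjusted p = 0.334). For Saa3 it was -0.28, 1.15, 4.18 and 5.75 (4.53 ± 0.65, adjusted p = 0.175). For the keratin Krt16 it was 0.02, 0.40, 2.49 and 1.86 (1.97 ± 0.54, adjusted p = 0.382), and for Krt1 it was 1.87, 6.27, 6.47 and 6.62 (2.48 ± 0.76, adjusted p = 0.46). Cyp1b1 stood level, at 4.28, 4.19, 4.26 and 4.10. Lss was level too, at -2.71, -2.71, -2.57 and -2.13. Each weekly value is the difference of 2 arrays against 2 and was not tested alone.

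Markers of other tissues that a dissected gland could carry had at least 1 call in every list but that of mast cells. Over all genes 12.6% were called higher and 15.7% lower. Of 9 skeletal muscle genes 1 was called higher, Tnnt3 (1.02 log2), and the list averaged 4.61 to 5.70 in the arrays labelled DKO, against 4.81 to 5.08 in WT. Fat cell markers averaged 6.09 to 6.81 in the arrays labelled DKO, against 6.40 to 6.93 in WT, with Lpl called lower among 6. Endothelial markers averaged 4.82 to 6.01 in the arrays labelled DKO, against 5.71 to 6.30 in WT, with Tek called lower among 6. Of 6 genes of male accessory glands 3 were called higher, at list means of 3.47 to 4.13 in the arrays labelled DKO, against 3.19 to 3.32 in WT, all below the median of all genes. No mast cell marker among 5 was called (5.62 to 6.26 in the arrays labelled DKO, against 5.26 to 5.75 in WT). Red cell markers averaged 4.83 to 6.21 in the arrays labelled DKO, against 4.99 to 5.18 in WT, with 1 of 2 called higher. Nerve markers averaged 5.11 to 6.57 in the arrays labelled DKO, against 5.91 to 6.48 in WT, with Pmp22 called lower among 3. Of the 9 duct and squamous markers Krt1 and Krt10 were called higher, and Krt14 and Upk1b, a uroplakin, lower. Their list averaged 6.94 to 8.00 in the arrays labelled DKO, against 6.42 to 7.25 in WT. All 6 endothelial differences were below 0 (median -0.59 log2), but the median was 0.35 in DKO week 12 replicate 2. In that array the sign also turned for red cells (0.345, and -0.22) and nerve (0.10, and -0.33). It turned too for duct and squamous markers (-0.32, and 0.05). It did not for muscle (0.125, and 0.01), fat (0.01, and 0.34), accessory glands (0.54, and 0.15) and mast cells (0.38, and 0.21). The part of these cells in the differences above was not tested.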

How the data were processed

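Expression was measured on 30 arrays, with biotin-labelled RNA amplified from preputial glands. The authors deposited log2 values per probe set, made with RMA per the submitters' processing notes. Their annotation build is not given in the sources used here. A platform table named 1 gene for 18786 of 21212 probe sets, several for 6 and none for 2420. Where a gene had more than 1, the brightest on average was kept (18784 genes). Values were quantile-normalized over all 30 arrays. A mean for each genotype and week (8 groups of 2) was fitted to the 16 arrays in limma 3.58.1 under R 4.3.3 (8 residual and 5.13 prior degrees of freedom). Genotypes were compared by the mean of the 4 weekly differences, two-sided, with Benjamini-Hochberg adjustment over all genes, and calls were made where the adjusted p was under 0.05. The 2 replicates of a group are separate mice per the protocol, and this number limits the precision. One spread per gene was shared by both genotypes, although array weights were 0.131 to 0.287 in the arrays labelled DKO and 1.88 to 8.91 in WT. Errors after ± are standard errors. Folds are given only where both group means exceed the median signal of all genes. The fit was tested on simulated data. Label replicate numbers did not pair the arrays (correlations of same-numbered deviations -0.03 to 0.09).

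The members and the 20 gene lists (335 of 376 genes measured) were chosen with earlier results of these data known. The rule for names took Cyp1a1, Cyp1b1, the 15 highest and 15 lowest differences under the stricter rule leaving out predicted models, and the 4 members of a list with the smallest adjusted p. Only some of them are described. Ahrr, Wfdc18, Sprr4, Il1r2, Acta2, Insig1, Awat2, Gclc, Slc7a11, Top2a, list members given with a log2 difference alone, and the genes of the last section fall outside it and were picked with their values known. Alternatives were the deposited values, other scalings, a low-value filter, other variance models and designs, and leaving out each array.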

Additional observations from a re-analysis of the deposited data

Results flagged for a closer look

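For each gene named in the text, and for the spread of each array's values, the 8 arrays of a genotype were searched for 1 array standing apart from the other 7, by Dixon's ratio of its gap to the whole range. Of 172 sets 20 stood out, where chance gives about 1 in 20.

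In the arrays labelled DKO, week 16 replicate 1 was the lowest for Sprr4 (5.35, the others 9.76 to 11.6, ratio 0.704), Krt15 (5.48, the others 7.59 to 9.23, ratio 0.563) and Awat2 (4.60, the others 7.73 to 10.3, ratio 0.551). DKO week 12 replicate 1 was the highest for Fabp5 (11.2, ratio 0.530), and DKO week 8 replicate 2 the lowest for Supt4a (2.46, ratio 0.534). DKO week 12 replicate 2 was the lowest for Vmn1r41 (7.79, the others 9.72 to 10.8, ratio 0.632).

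In WT, week 12 replicate 1 stood apart for 9 genes. It was the highest for Nqo1 (5.86, ratio 0.541), Defb4 (4.67, ratio 0.697), Il1f9 (6.26, ratio 0.570), Ndufa9 (10.5, ratio 0.665) and Rad18 (7.37, the others 6.86 to 6.94, ratio 0.857). It was the lowest for Sprr4 (11.6, ratio 0.710), Cd74 (6.94, ratio 0.537), Acacb (6.79, ratio 0.557) and Gabrp (8.20, the others 10.04 to 11.04, ratio 0.646). WT week 12 replicate 2 was the highest for S100a8 (4.49, ratio 0.559) and the lowest for Top2a (6.85, ratio 0.593). WT week 8 replicate 1 was the highest for Lce3a (5.17, ratio 0.646) and Slc7a11 (4.13, ratio 0.546), and WT week 8 replicate 2 for Xpa (8.54, ratio 0.554). WT week 12 replicate 1 also had the lowest median correlation among WT arrays, at 0.965.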

How the results depend on the processing

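Counts of called genes depended on scaling and design. The genes called higher and lower numbered 7623 and 5583 on the deposited values, 6240 and 6505 with median centring, and 171 and 170 with the label number range as a block. The median over all genes moved to 0.19 log2 on the deposited values, from 0.03 in the fit reported. With DKO week 12 replicate 2 as the only array labelled DKO, 3596 were higher, with the spread taken from the WT arrays alone, and 2936 of the 7062 genes called there shared their call and sign with the 5313. The stricter rule held for 1788 genes on the deposited values, 1925 with median centring, 1069 with centring and scaling by SD, and 71 with the number block, against 649. The replicate block of the label numbers, which do not pair the arrays, gave 2294 higher, 2913 lower and 648 under the stricter rule, and changed no call of a named gene. Leaving out 1 array gave 1538 to 3327 higher, 2223 to 3683 lower and 649 to 731 under the stricter rule, which needs DKO week 12 replicate 2 and has no value without it. The change from earlier to later weeks was called for 1 gene with normal scores of ranks, 1 with array weights, 9 with all 15 groups and 65 with the number block. The F test gave 2, 2, 17 and 166. Leaving out 1 array gave 0 to 315 and 0 to 543.

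Of the named genes 84 were called. All 84 kept their call and sign with quantile normalization over 16 arrays, trend and robust variance, the additive fit, all 15 groups and the mean of probe sets, 81 did on the deposited values, 79 with median centring, 79 with centring and scaling by SD, 82 with normal scores and 82 with array weights, 75 with DKO week 12 replicate 2 alone, and 19 with the number block. The 19 were Cyp1b1, Tiparp, Aldh3a1, Stfa1, Stfa3, Csta1, Defb4, Defb6, Krt1, Krt10, Rptn, Sprr2d, Lce3a, S100a8, C1qc, Col5a2, Tmem97, Liph and Sntb1. The low-value filter removed 3 and kept 81. Top2a turned to -0.40 on the deposited values and -0.58 with centring. The number block turned Wfdc18 (0.0104), Krt16 (-0.75), Itga6 (1.25), Il1r2 (1.20), Gsta4 (0.71), Tcp10c (-0.56) and Pfkp (0.69). DKO week 12 replicate 2 alone turned Acta2 (0.0903) and Pfkp (0.0372). The cause was not tested. Arrays of 2 mice per group limit every weekly value.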

Other observations

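Gene families were also counted by symbol, all chosen after their values were seen. Genes with proteasome (Psm) symbols were lower, with 18 of 39 called lower and 1 higher (median -0.75 log2, and -0.75 in DKO week 12 replicate 2). Psmb7, a core subunit, was at -2.46, and the highest was Psmc3ip, taken in by its symbol alone, at 1.14. Genes of the citrate cycle and of fatty acid oxidation had 19 of 31 called lower and 1 higher (median -1.32, and -1.06 in DKO week 12 replicate 2). Mitochondrial ribosome genes (Mrpl and Mrps) had 28 of 76 called lower and 4 higher (median -0.38, and -0.68 in that array), and Nduf genes 13 of 44 lower and 7 higher (median -0.22, and -0.52 in that array). Of 14 peroxins, which build peroxisomes, 4 were lower and none higher (median -0.49, and -0.59 in that array), with Pex3 at -2.43. These families lie at WT medians of 6.64 to 8.73, where lower calls were frequent among all genes (26.6% and 39.9% in the upper 2 of 5 bands by WT signal).

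On the higher side stood 20 of 42 collagens with none lower (median 0.51, and 0.49 in DKO week 12 replicate 2), 12 of 26 Serpinb genes with none lower (median 0.49, and 0.44 in that array, with Serpinb3a at 3.82), and 8 of 18 Hnrnp genes with 1 lower (median 0.24, and 0.96 in that array). Annexins had 8 of 12 lower and none higher (median -1.10, and -0.46 in that array), with Anxa2 at -2.02. Over all genes 12.6% were called higher and 15.7% lower. The WT medians were 5.22 for collagens, 3.41 for Serpinb and 9.44 for Hnrnp genes. In the bands that hold these levels, 11.2%, 20.5% and 11.5% of all genes were called higher. At the annexin WT median, 7.81, lower calls came to 39.9% of all genes in the band.

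Some chemosensory receptors, at signals far below the median of all genes, were called higher too. Of 1068 Olfr genes 238 (22.3%) were called higher and 11 lower (median 0.36). Of 187 Vmn genes 55 (29.4%) were called higher and none lower (median 0.53). In DKO week 12 replicate 2 these medians were 0.03 and 0.04. The WT medians of both families, 3.52 and 3.19, lay in the lowest of 5 bands by WT signal (2.24 to 4.14). In that band 20.5% of all genes were called higher, with a median of 0.37, and 0.05 in DKO week 12 replicate 2. The Olfr share and median were thus near those of all genes at that level, and the Vmn values were above them. Vmn1r41 was at 7.79 to 10.8 (median 10.4) in the arrays labelled DKO, against 5.20 to 5.88 (median 5.64) in WT, and Tcp10c, a gene of the mouse t-complex, was at 5.29 to 9.69 (median 8.53) in the arrays labelled DKO, against 4.10 to 4.85 (median 4.53) in WT. Both were among the 15 highest genes of the stricter rule (4.47 ± 0.32 and 3.59 ± 0.46 log2, limma adjusted p = 2.86e-06 and 0.000177), but at 1.99 and 2.18 in DKO week 12 replicate 2, and at 1.09 and -0.56 with the number block.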
